A study of Mus musculus with 12 samples.

Results

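The genes described here encode the proteoglycans, link proteins and tenascins of perineuronal nets, measured in the mouse hippocampus. They were taken by symbol from the deposited table: the lecticans Acan, Bcan, Ncan and Vcan, the link proteins Hapln1, Hapln2 and Hapln4, and the tenascins Tnr and Tnc. All 9 were among the 36119 genes of the table, and all 9 reached the mean of at least 1 that was asked of the 14947 genes tested. Perineuronal nets are lattices of extracellular matrix that enclose the cell body and proximal dendrites of certain neurons, above all parvalbumin interneurons and, in the hippocampus, also CA2 pyramidal cells. A net is built on chains of hyaluronan; lecticans, which carry chondroitin sulfate, bind the hyaluronan, link proteins hold that bond in place, and tenascin-R crosslinks the lecticans at their other end. The same proteins also form the looser matrix between cells and the matrix at nodes of Ranvier, and a tissue RNA level does not tell these apart.

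The mice were C57BL/6, and their hippocampi were taken at postnatal day 70. In pups of 2 groups ethanol was injected subcutaneously at 2.5 g/kg, 2 times per day with 2 h between injections, on postnatal days 6 and 7. Pups of the other 2 groups received saline (0.15 M) on that schedule. Housing differed from day 21: standard cages for some mice, and for the others enriched cages, in which 2 to 6 littermates of 1 sex had wheels and toys. With 3 libraries each, the 4 groups are named by housing and treatment (standard saline and standard ethanol; enriched saline and enriched ethanol). The labels speak of prenatal exposure, while the protocol dates the injections to after birth. The labels used here give neither the sex of each mouse nor whether replicates came from separate litters, so the p-values cover only the spread among these 12 libraries, which may in part be technical.

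Values are the authors' TPM, a transcript abundance in which a gene's reads are divided by its length and scaled to the library, so that levels of different genes can be set side by side. Sequencing depth is unknown. Hippocampal neuron markers summed to between 1577 and 2205 TPM in each library, with none of the list at 0 throughout. Some libraries stood apart in marker genes. The mean deviation of the choroid plexus list from the 12-library average was 3.95 on the log2 scale in enriched saline replicate 2 and 1.12 in standard ethanol replicate 1. Standard saline replicate 2 was low for meningeal (-1.05), neocortical (-0.67) and myelin (-0.41) markers and high for dentate granule cell markers (0.63). Values without these 3 libraries are given below beside many of the differences. Differences were tested with limma on log2(TPM + 0.5) in 1 model of all 12 libraries, with two-sided p-values adjusted by the Benjamini-Hochberg method over all 14947 genes and a threshold of 0.05. On this scale the fold changes of low genes such as Acan and Tnc come out too small. In whole tissue, fewer cells of a type and less RNA per cell cannot be told apart.

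The genes lie in pairs along the genome. On GRCm38, in the GENCODE M21 annotation, Bcan (chr3:87987531-88000230, minus strand) and Hapln2 (chr3:88021750-88027583, minus strand) are 21519 bases apart. Ncan (chr8:70093085-70120873, minus strand) and Hapln4 (chr8:70083457-70090862, plus strand) are 2222 bases apart, with their 3′ ends facing. Vcan (chr13:89655312-89742509, minus strand) and Hapln1 (chr13:89539796-89611652, plus strand) also face each other with their 3′ ends, 43659 bases apart. No protein-coding gene lies between the members of any of these pairs. Acan (chr7:79053483-79115099, plus strand) ends 2 bases from the end of Hapln3, a link protein gene outside the set whose mean level was 1.23 TPM. Tnr (chr1:159523769-159931729, plus strand) and Tnc (chr4:63959785-64047015, minus strand) stand alone.

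Promoter sequences were compared next. RefSeq windows on GRCm38.p6 were matched for 8 of the 9 genes, all but Hapln4. The windows were searched on both strands for the TATA box (TATAAA), the GC box (GGGCGG), the CCAAT box (CCAAT) and the cAMP response element (TGACGTCA), none of which contains another. Of 32851 windows of 250 bases before a start, 12.4% held a TATA box, 32.7% a GC box, 33.8% a CCAAT box and 1.55% a cAMP response element. The 150 bases before the start are printed for Tnr, Tnc and Vcan, which had groups of libraries that did not overlap in comparisons below. Their printed bases hold different motifs. The shares above are for 250 bases and cannot be set against counts in these 150. Hapln1 and Hapln4 also had such groups. Hapln4 had no window, and all 250 bases of the Hapln1 window lie inside an annotated transcript of that gene. A further Tnc start, inside an annotated Tnc transcript, is not printed. Capitals mark the motifs, which read ATTGG for a CCAAT box and CCGCCC for a GC box where they lie on the other strand.
Tnr, chr1:159523619-159523768, plus strand: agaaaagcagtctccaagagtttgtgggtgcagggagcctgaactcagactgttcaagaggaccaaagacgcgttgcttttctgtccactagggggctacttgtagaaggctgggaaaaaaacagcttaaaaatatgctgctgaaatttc
Tnc, chr4:64047016-64047165, minus strand: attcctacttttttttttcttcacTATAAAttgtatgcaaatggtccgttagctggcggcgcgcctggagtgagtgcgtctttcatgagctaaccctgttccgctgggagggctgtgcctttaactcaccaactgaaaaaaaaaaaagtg
Vcan, chr13:89742513-89742662, minus strand: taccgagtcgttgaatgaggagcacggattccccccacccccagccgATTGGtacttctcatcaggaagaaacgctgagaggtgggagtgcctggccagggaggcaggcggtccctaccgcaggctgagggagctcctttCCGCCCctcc
The printed Tnc bases hold 1 TATA box and have 44.7% G and C. Those of Vcan hold 1 GC box and 1 CCAAT box, with 63.3% G and C and 8 CpG dinucleotides. Those of Tnr hold none of the 4 motifs, with 46.0% G and C and 2 CpG dinucleotides. In the longer window of 250 bases, the printed Tnc start had 1 TATA box and 1 GC box, Vcan 2 GC boxes and 1 CCAAT box, and Tnr none. Ncan had 1 TATA box and 1 GC box. Acan had 3 GC boxes and 26 CpG dinucleotides and Bcan 16 CpG dinucleotides, against a median of 6 over all windows. For Acan, Bcan and Vcan the bases just after the RefSeq start were not found in a GENCODE M21 transcript of the gene. The RefSeq start of Acan is 79053226, against 79053483 in GENCODE, and that of Bcan 88000356, against 88000230. No window of the 8 genes held the cAMP response element. A match of letters is a description and not a binding site.

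The 9 genes covered a wide range of levels. Bcan was the most abundant, with a mean of 119.9 TPM over the 12 libraries, followed by Tnr (91.5 TPM) and Ncan (79.8 TPM). Hapln4 (35.6 TPM) and Hapln1 (34.4 TPM) came next, then Hapln2 (8.84 TPM), Vcan (8.67 TPM), Tnc (4.53 TPM) and Acan (2.51 TPM). Bcan exceeded Tnr in 11 of 12 libraries, and Tnr exceeded Ncan in 12 of 12, although their ranges overlapped. Hapln4 exceeded Hapln1 in 9 of 12 libraries, all but the 3 of standard ethanol, and Hapln2 exceeded Vcan in 6 of 12. These orders were not tested. The steps from Ncan to Hapln4 and from Hapln1 to Hapln2 had no overlap between any libraries. Acan, the core proteoglycan by which nets are often stained, lay at the 12.6th percentile of the tested genes, and Bcan at the 91.2nd.

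**Figure D1:**
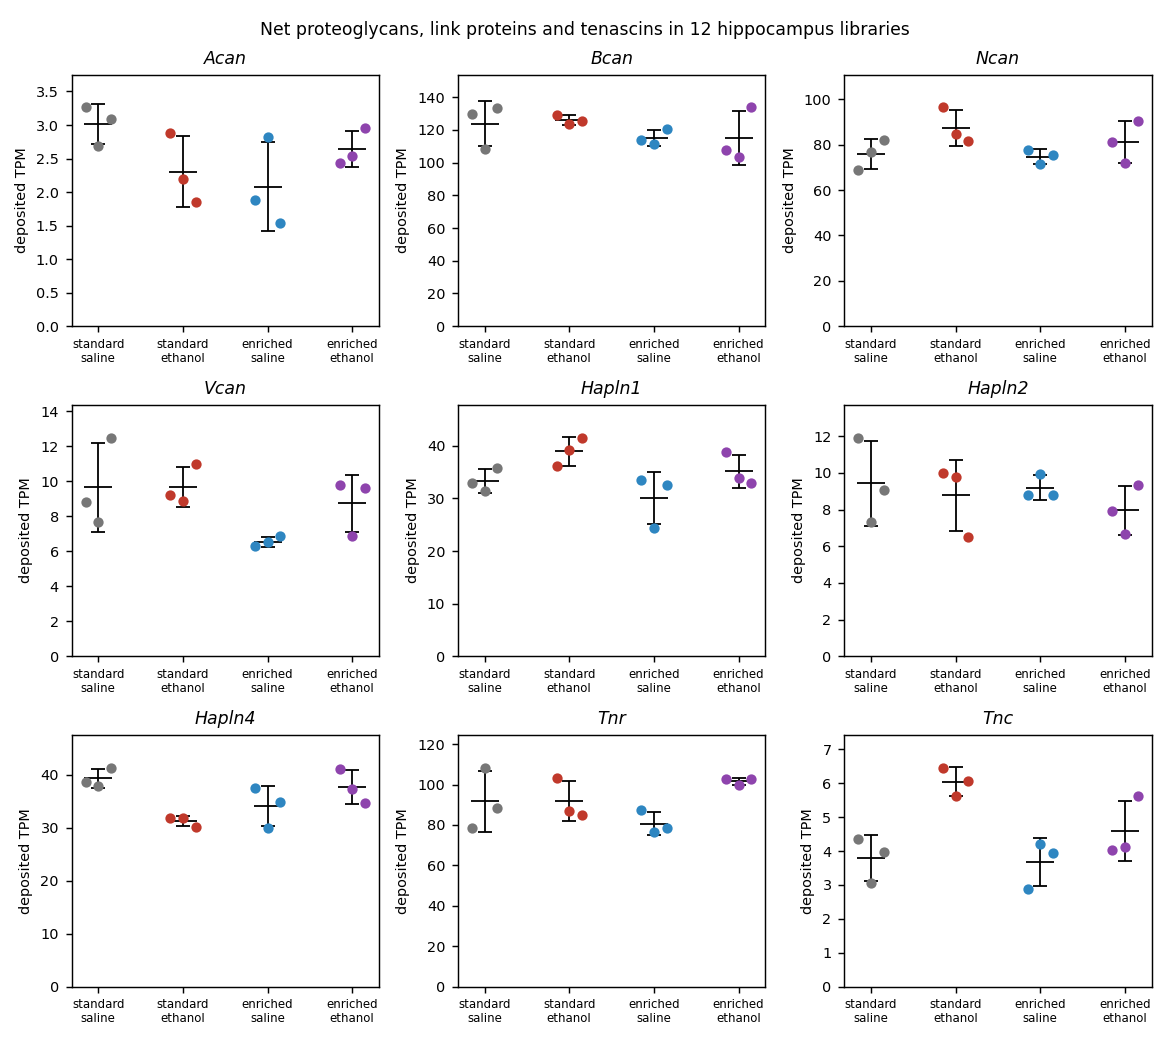
Deposited TPM of each of the 9 genes (vertical axes, each starting at 0) in the 4 groups, with 1 point per library, the group mean as a long bar and the SD as error bars (n = 3). The 3 standard ethanol points lie below the 3 standard saline points for Hapln4 and above them for Tnc, and the 3 enriched saline points of Vcan lie between 6.28 and 6.85 TPM, below the other 9.

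Among the lecticans, Bcan encodes brevican, a short lectican made largely by glia. It was at 129.9, 108 and 133 TPM in the 3 standard saline libraries, at 129, 124 and 125 in standard ethanol, at 114, 111 and 120.5 in enriched saline, and at 108, 103 and 134 in enriched ethanol. The groups overlapped, and enriched ethanol held both the lowest and the highest library of the 12. Ncan encodes neurocan, a lectican of neurons and astrocytes that is abundant in the developing brain. Its values were 68.7, 77.0 and 82.2 TPM in standard saline, 96.5, 84.6 and 81.5 in standard ethanol, 77.5, 71.3 and 75.5 in enriched saline, and 81.1, 71.8 and 90.4 in enriched ethanol. The highest library was a standard ethanol one, and 1 of the 3 standard ethanol values lay below the highest standard saline value.

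Vcan encodes versican, which is made by precursors of oligodendrocytes and by other cells and is also part of the matrix at nodes of Ranvier. It was at 8.82, 7.66 and 12.5 TPM in standard saline, 9.21, 8.88 and 11.0 in standard ethanol, 6.28, 6.52 and 6.85 in enriched saline, and 9.79, 6.88 and 9.60 in enriched ethanol. The 3 enriched saline libraries were the lowest of the 12, with enriched ethanol replicate 2 just above them. Acan encodes aggrecan, the lectican most closely tied to nets. Its values were 3.26, 2.69 and 3.09 TPM in standard saline, 2.89, 2.19 and 1.85 in standard ethanol, 1.88, 2.82 and 1.54 in enriched saline, and 2.44, 2.54 and 2.95 in enriched ethanol. Standard ethanol and enriched saline held the 4 lowest values, but each also had 1 library within the standard saline range. By share of the summed lectican TPM, Bcan made up 56.9% ± 2.13 (SD, n = 12), Ncan 37.9% ± 2.21, Vcan 4.08% ± 0.694 and Acan 1.19% ± 0.254.

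Of the link proteins, Hapln4, also called Bral2, is a brain link protein that pairs with brevican. It was at 38.7, 37.9 and 41.3 TPM in standard saline, 31.9, 31.8 and 30.2 in standard ethanol, 37.5, 29.97 and 34.9 in enriched saline, and 41.2, 37.4 and 34.7 in enriched ethanol. The standard ethanol libraries were close together, below all standard saline and all enriched ethanol libraries. Hapln1, cartilage link protein, is the link protein needed for compact nets. Its values were 32.9, 31.3 and 35.7 TPM in standard saline, 36.1, 39.2 and 41.6 in standard ethanol, 33.4, 24.4 and 32.5 in enriched saline, and 38.8, 33.8 and 33.0 in enriched ethanol. The 3 standard ethanol values lay above the 3 standard saline values, and the lowest value was that of enriched saline replicate 2, the library with choroid plexus RNA.

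Hapln2, or Bral1, belongs to oligodendrocytes and the nodes of Ranvier rather than to nets. It was at 11.9, 7.32 and 9.07 TPM in standard saline, 10.005, 9.79 and 6.52 in standard ethanol, 8.80, 9.96 and 8.78 in enriched saline, and 7.91, 6.66 and 9.32 in enriched ethanol, with all 4 groups overlapping. Of the summed link protein TPM, Hapln4 made up 45.2% ± 3.58 (SD, n = 12), Hapln1 43.5% ± 4.14 and Hapln2 11.3% ± 2.25. Standard ethanol was the group in which this order was turned around. There Hapln1 made up 46.3% to 53.1% and Hapln4 38.6% to 40.9%, while in the other 9 libraries Hapln4 made up 45.1% to 49.5% and Hapln1 37.9% to 44.2%. These shares are given without a test.

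Tnr encodes tenascin-R, the crosslinker of lecticans, made by oligodendrocytes and interneurons. Its values were 78.5, 108 and 88.4 TPM in standard saline, 103, 87.1 and 85.1 in standard ethanol, 87.2, 76.4 and 78.5 in enriched saline, and 103, 99.7 and 102 in enriched ethanol. The enriched ethanol libraries were close together and above all enriched saline libraries, while the highest value belonged to standard saline replicate 2. Tnc encodes tenascin-C, a glycoprotein of developing tissue and of astrocytes and injury responses. It was at 4.37, 3.05 and 3.97 TPM in standard saline, 6.46, 5.62 and 6.07 in standard ethanol, 2.88, 4.20 and 3.95 in enriched saline, and 4.04, 4.11 and 5.61 in enriched ethanol. The 3 standard ethanol libraries held the 3 highest values, with enriched ethanol replicate 3 just below. Tnr made up 95.2% of the summed tenascin TPM, and Tnc 4.75% ± 1.19 (SD, n = 12). The Tnc share was 5.89% to 6.66% in standard ethanol and 2.74% to 5.27% in the other 9 libraries.

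Early ethanol was compared with saline first in standard cages, where Hapln4 was lower and Tnc and Hapln1 were higher in every ethanol library than in every saline library. Hapln4 averaged 31.3 ± 0.985 TPM with ethanol and 39.3 ± 1.78 with saline (SD, n = 3 each), a log2 fold change of -0.32 (SE 0.090, 95% confidence interval -0.52 to -0.13). Tnc averaged 6.05 ± 0.419 against 3.80 ± 0.673 TPM, a log2 fold change of 0.62 (SE 0.185, 95% confidence interval 0.21 to 1.023). Hapln1 (38.95 ± 2.73 against 33.3 ± 2.23 TPM, log2 fold change 0.22) was the third gene whose groups did not overlap. No member passed the threshold over all genes: the limma adjusted p was 0.419 for Hapln4, 0.484 for Tnc and 0.707 for Hapln1. Of all tested genes, 0.0134% were called. Hapln4 and Tnc, 2 of 9 members, were under 0.05 before adjustment, as were 7.39% of all tested genes. Groups did not overlap for 3 of 9 members against 12.1% of all tested genes. The median log2 fold change was 0.028 over the 9 genes and 0.0024 over all genes, with 6 of 9 above 0, against 50.7% of all tested genes. Acan (-0.34, 95% confidence interval -0.82 to 0.14; -0.55 without the 3 libraries that stood apart), Ncan (0.20), Bcan (0.030), Vcan (0.028), Tnr (0.0091) and Hapln2 (-0.098; -0.36 without those 3) had intervals that included 0. Leaving out 1 library at a time, the Acan value ran from -0.48 to -0.22, the smaller without standard ethanol replicate 3.

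Markers of other cells differed in the same comparison. Of the 12 oligodendrocyte precursor markers 10 had log2 fold changes above 0, and the list's mean deviation was 0.14 to 0.21 in standard ethanol and -0.20 to 0.064 in standard saline, with summed levels of 336 to 343 and 265 to 374 TPM. Within this list Gpr17 (0.72) and Enpp6 (0.53) were highest, Pdgfra had 0.14 and Cspg4 0.23, and Bcas1 (-0.21) and Sox10 (-0.17) lay below 0. Bcas1, with a mean of 118 TPM, was the largest part of the sum. Of the 16 myelin markers 13 were above 0 (5718 to 6034 against 3467 to 5938 TPM in sum). All 10 dentate granule cell markers were below 0 (309 to 376 against 368 to 541 TPM). All 10 meningeal fibroblast markers were above 0, with a median log2 fold change of 0.53 (146 to 201 against 78.3 to 135 TPM). The mean deviation of the meningeal list overlapped, at -0.068 to 0.47 in standard ethanol and -1.05 to 0.14 in standard saline. Also above 0 were 9 of 10 neocortical (209 to 228 against 122 to 247 TPM) and 7 of 8 endothelial markers (179.8 to 182 against 144 to 182 TPM). None of these lists had a gene at 0 in all libraries. With the myelin mean as a covariate the log2 fold change was -0.31 for Hapln4 and 0.46 for Tnc. Without the 3 libraries that stood apart it was -0.36 for Hapln4 and 0.44 for Tnc (limma adjusted p = 0.484 and 0.720). The part of the precursor, granule cell, meningeal, neocortical and endothelial markers in these differences was not tested. Markers of parvalbumin and fast-spiking interneurons, the main net-bearing cells, overlapped, at 778 to 853 TPM in sum in standard ethanol and 761 to 892 in standard saline.

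In enriched cages Tnr and Vcan were higher in every ethanol than in every saline library. Tnr averaged 102 ± 1.68 TPM with ethanol and 80.7 ± 5.71 with saline (SD, n = 3 each), a log2 fold change of 0.33 (SE 0.109, 95% confidence interval 0.097 to 0.57). Vcan averaged 8.76 ± 1.63 against 6.55 ± 0.285 TPM, a log2 fold change of 0.38 (SE 0.180, 95% confidence interval -0.015 to 0.77), with the lowest enriched ethanol and the highest enriched saline library at 6.88 and 6.85 TPM. Neither passed (limma adjusted p = 0.576 for Tnr and 0.655 for Vcan), and 0% of all tested genes did. Tnr was the 1 member of 9 under 0.05 before adjustment, against 7.76% of all tested genes. Groups did not overlap for 2 of 9 members against 15.2% of all tested genes. Hapln1 had a log2 fold change of 0.23, which was 0.090 without enriched saline replicate 2, and Tnc had 0.29, which was 0.14 without enriched saline replicate 1. Hapln4 had 0.15 and Acan 0.31, both of the other sign than in standard cages. The median over the 9 genes was 0.23, against -0.0071 over all genes, and 7 of 9 lay above 0, against 48.0% of all tested genes. Without the 3 libraries that stood apart, Tnr had 0.30, Hapln4 0.057 and Acan 0.51. The Acan value was 0.16 without enriched saline replicate 3. Of 10 hippocampal neuron markers 9 were above 0, with summed levels of 1888 to 2057 TPM in enriched ethanol and 1612 to 1732 in enriched saline, and of 12 astrocyte markers 10 (3379 to 3540.4 against 3068 to 3179 TPM). Of 16 myelin markers 15 were above 0, with a median log2 fold change of 0.31 (4133 to 6140.2 against 3461 to 4286 TPM), while 0 of 10 choroid plexus markers were (44.7 to 52.4 against 36.9 to 7852 TPM). The mean deviation of the choroid plexus list was -0.57 and -0.93 in enriched saline replicates 1 and 3, and -0.71 to -0.51 in enriched ethanol. With the myelin mean as a covariate the log2 fold change was 0.41 for Tnr and 0.31 for Vcan, and the part of the other lists was not tested.

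Enrichment was compared with standard housing in saline-treated mice next. All 9 genes had log2 fold changes below 0, with a median of -0.16 against 0.0028 over all tested genes, of which 50.9% were above 0. Several of these signs were not stable. After each library was rescaled to the same sum, Ncan (0.0072) and Hapln2 (0.011) moved just above 0, and with the myelin mean as a covariate Hapln2 (0.15), Tnc (0.067) and Ncan (0.0013) did. Without the 3 libraries that stood apart Ncan had 0.026, and with 1 library left out Hapln2, Tnc and Ncan reached up to 0.16, 0.10 and 0.039. Vcan averaged 6.55 ± 0.285 TPM in enriched and 9.66 ± 2.53 in standard cages (SD, n = 3 each), a log2 fold change of -0.50 (SE 0.180, 95% confidence interval -0.89 to -0.11). Hapln4 averaged 34.1 ± 3.82 against 39.3 ± 1.78 TPM (log2 fold change -0.21, SE 0.090), and Acan 2.08 ± 0.663 against 3.01 ± 0.296 TPM (-0.47, SE 0.219). None of the 9 passed: the limma adjusted p was 0.418 for Vcan, 0.481 for Hapln4 and 0.505 for Acan, while 0.0268% of all tested genes were called. Vcan and Hapln4, 2 of 9, were under 0.05 before adjustment, against 10.02% of all tested genes. The groups of Vcan and Hapln4 also did not overlap, against 13.97% of all tested genes.

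The Vcan and Hapln4 values depended on single libraries. Leaving out 1 library at a time, the Vcan log2 fold change ran from -0.64 to -0.31 and that of Hapln4 from -0.28 to -0.12. The smaller Vcan value came without standard saline replicate 3, at 12.5 TPM, and the smaller Hapln4 value without enriched saline replicate 2. Without the 3 libraries that stood apart, Vcan had -0.64, Hapln4 -0.14, Acan -0.74 in place of -0.47 and Tnr -0.010 in place of -0.17, while Hapln1 had -0.055 in place of -0.16, Tnc -0.27 in place of -0.043 and Hapln2 -0.23 in place of -0.014. Of 12 astrocyte markers 2 were above 0, with summed levels of 3068 to 3179 TPM in enriched saline and 3145 to 3828 in standard saline, and of 16 myelin markers 1 (3461 to 4286 against 3467 to 5938 TPM). All 10 meningeal fibroblast markers were above 0, with a median log2 fold change of 0.74 (133 to 224 against 78.3 to 135 TPM), and all 10 choroid plexus markers were (36.9 to 7852 against 82.6 to 141 TPM). The choroid plexus list was high in enriched saline replicate 2 only. Replicates 1 and 3 had mean deviations of -0.57 and -0.93, below the -0.31 to 0.0014 of standard saline. All 10 dentate granule cell markers were below 0, with a median of -0.37 (331 to 412 against 368 to 541 TPM), as were 8 of 10 hippocampal neuron markers (1612 to 1732 against 1577 to 2205 TPM). With the myelin mean as a covariate Vcan had -0.46, and the part of the other lists was not tested.

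In ethanol-treated mice Hapln4 was higher and Tnc lower in every enriched than in every standard library. Hapln4 averaged 37.8 ± 3.23 TPM in enriched and 31.3 ± 0.985 in standard cages (SD, n = 3 each), a log2 fold change of 0.26 (SE 0.090, 95% confidence interval 0.067 to 0.46; limma adjusted p = 0.861). Tnc averaged 4.59 ± 0.890 against 6.05 ± 0.419 TPM, a log2 fold change of -0.38 (SE 0.185, 95% confidence interval -0.78 to 0.027; limma adjusted p = 0.887). These were the 2 of 9 members whose groups did not overlap, against 12.05% of all tested genes, and the highest enriched ethanol and lowest standard ethanol Tnc libraries were at 5.61 and 5.62 TPM. Hapln4, 1 of 9, was under 0.05 before adjustment, against 5.57% of all tested genes, and 0 of 9 passed after adjustment, against 0.00669%. The other 7 log2 fold changes lay between -0.15 and 0.18, of which Acan moved from 0.18 to 0.32 and Tnr from 0.15 to 0.24 without the libraries that stood apart. Of 16 myelin markers 1 was above 0 (4133 to 6140.2 TPM in sum in enriched and 5718 to 6034 in standard cages), of 12 oligodendrocyte precursor markers 2 (288 to 367 against 336 to 343 TPM), of 10 choroid plexus markers 0 (44.7 to 52.4 against 41.5 to 439 TPM) and of 10 dentate granule cell markers 9 (362 to 387 against 309 to 376 TPM). The mean deviation of the choroid plexus list was -0.66 and -0.70 in standard ethanol replicates 2 and 3, within the -0.71 to -0.51 of enriched ethanol. With the myelin mean as a covariate Hapln4 had 0.26 and Tnc -0.26, and the part of the other lists was not tested. This comparison shares the standard ethanol libraries with that of ethanol in standard cages, and the Hapln4 and Tnc values of both rest on them.

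**Figure D2:**
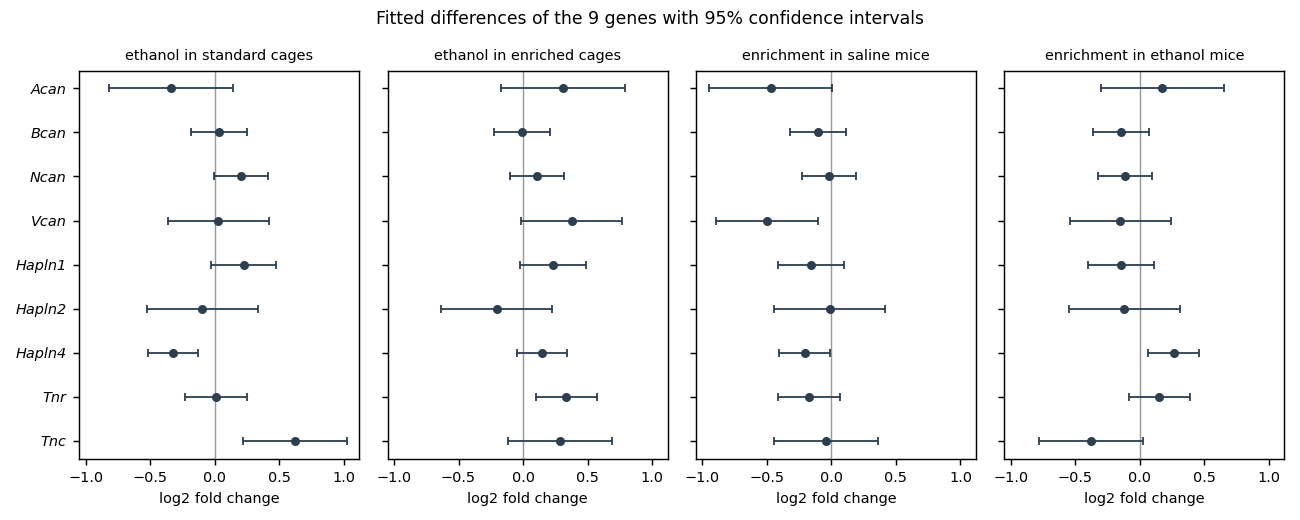
Log2 fold change (horizontal axes) of each of the 9 genes in the 4 comparisons of 2 groups, with points for the limma estimate and bars for the 95% confidence interval. Hapln4 lies at -0.32 for ethanol in standard cages and at 0.15 in enriched cages, and all 9 points of enrichment in saline mice lie below 0.

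The difference between the ethanol effects in the 2 housings was tested as an interaction. Hapln4 had an interaction of 0.47 on the log2 scale (SE 0.127, 95% confidence interval 0.19 to 0.75), made of -0.32 in standard and 0.15 in enriched cages. It was the 1 of 9 members under 0.05 before adjustment, against 7.41% of all tested genes, and its limma adjusted p was 0.521. No member passed, and 0.0134% of all tested genes did. The Hapln4 interaction ran from 0.38 to 0.54 with each library left out in turn and was 0.42 without the 3 libraries that stood apart. On the same contrast all 10 dentate granule cell markers (median 0.54) and 9 of 10 hippocampal neuron markers (median 0.29) lay above 0, and all 10 meningeal fibroblast (median -0.75) and all 10 choroid plexus markers (a list at 3.95 in enriched saline replicate 2) below 0. Their part in the Hapln4 value was not tested. Acan had 0.65 with a wide interval (-0.029 to 1.32), and 1.06 without those 3 libraries. Tnr had 0.32 (-0.011 to 0.66), which was 0.20 without standard saline replicate 2, and Vcan 0.35 (-0.21 to 0.90), which was 0.16 without standard saline replicate 3. Those of Hapln1 (0.0097, 95% confidence interval -0.35 to 0.37; -0.14 without the 3 libraries), Bcan (-0.041) and Ncan (-0.093) were near 0. Tnc had an interaction of -0.33 (-0.90 to 0.24) and Hapln2 1 of -0.10 (-0.71 to 0.50).

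Averaged over both housings, ethanol gave 4 of 9 members a p under 0.05 before adjustment, against 8.02% of all tested genes. They all lay above 0, and were Tnc (log2 fold change 0.45, SE 0.131), Hapln1 (0.23, SE 0.083), Tnr (0.17, SE 0.077) and Ncan (0.16, SE 0.068). Their limma adjusted p-values were 0.454, 0.525, 0.620 and 0.597, so none passed, and 0.0134% of all tested genes did. For Tnc and Hapln1 the separate values in standard and enriched cages were 0.62 and 0.29, and 0.22 and 0.23. For Tnr they were 0.0091 and 0.33, so the average came almost wholly from the enriched cages. Without the 3 libraries that stood apart the average was 0.41 for Tnc and 0.17 for Tnr, and with the myelin mean as a covariate it was 0.29 for Tnc and 0.25 for Tnr. These 2 checks are not given here for Hapln1 and Ncan, whose r with the myelin list was 0.54 and 0.53 over the 12 libraries. Leaving out 1 library at a time, their averages ran from 0.16 to 0.27 for Hapln1 and from 0.12 to 0.20 for Ncan. All 16 myelin, 11 of 12 astrocyte and 10 of 12 oligodendrocyte precursor markers lay above 0 for averaged ethanol (medians 0.35, 0.058 and 0.12). Bcan, the most abundant member, had 0.0099 with a 95% confidence interval of -0.14 to 0.16.

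Averaged over both treatments, enrichment gave Vcan a log2 fold change of -0.32 (SE 0.127, 95% confidence interval -0.60 to -0.047; limma adjusted p = 0.609). It was the 1 of 9 members under 0.05 before adjustment, against 7.96% of all tested genes, and 0 of 9 passed, against 0.0201%. The separate values of Vcan were -0.50 in saline and -0.15 in ethanol mice. Of the 9 genes 8 lay below 0, with a median of -0.12, and Hapln4 at 0.028 was the exception. Over all tested genes 50.0% lay above 0, with a median of -0.00013. With 1 library left out, the values of Hapln2, Hapln4 and Tnr could change sign. None of the 16 myelin and 1 of 12 oligodendrocyte precursor markers lay above 0 (medians -0.26 and -0.12); with the myelin mean as a covariate Vcan had -0.28. With the lowest and highest of 6 against 6 libraries, 0 of 9 members had groups that did not overlap for either averaged effect, against 0.415% of all tested genes for ethanol and 0.375% for enrichment.

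Mice with both ethanol and enrichment were then compared with mice with neither. No member had groups that did not overlap, against 10.7% of all tested genes, 0 of 9 were under 0.05 before adjustment, against 6.52%, and 0 of 9 passed after adjustment, against 0.0134%. The log2 fold changes ran from -0.22 for Hapln2 to 0.24 for Tnc, and both ends moved with single libraries. With 1 library left out Hapln2 ran from -0.38 to -0.043 and Tnc from 0.10 to 0.34. Without standard saline replicate 2, the 1 library of these groups that stood apart, Hapln2 had -0.38, Tnc 0.11, Tnr 0.29 in place of 0.16 and Vcan -0.27 in place of -0.12. Of 10 meningeal fibroblast markers 9 were above 0 (127 to 153 against 78.3 to 135 TPM) and of 10 dentate granule cell markers 1 (362 to 387 against 368 to 541 TPM), and their part was not tested. The Hapln4 log2 fold change was -0.061 (95% confidence interval -0.26 to 0.14). The median half-width of the 95% confidence intervals was 0.26, so differences of that order are not excluded.

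Across the 12 libraries the levels of the members were compared in pairs. Of 36 pairs, 27 had a Pearson correlation above 0 on the log2 scale, with a median of 0.24, and none passed a permutation test after Benjamini-Hochberg adjustment (4 had an unadjusted p under 0.05). Of the neighbouring genes, Vcan and Hapln1 had r = 0.63 (Spearman's rho 0.66, permutation p = 0.0219 and 0.0239, adjusted p = 0.343 and 0.305), 0.40 within groups and 0.49 without the 2 libraries farthest from the Hapln1 median. Bcan and Hapln2 had r = 0.54 (rho 0.52, adjusted permutation p = 0.343 and 0.380), and Ncan and Hapln4 r = -0.23 (rho -0.16, adjusted permutation p = 0.705 and 0.830). The lowest value was that of Hapln4 and Tnc (r = -0.62, rho -0.60, adjusted permutation p = 0.343 and 0.305), which became -0.42 without 2 standard ethanol libraries. Correlations of TPM values share each library's scaling and tissue makeup.

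**Figure D3:**
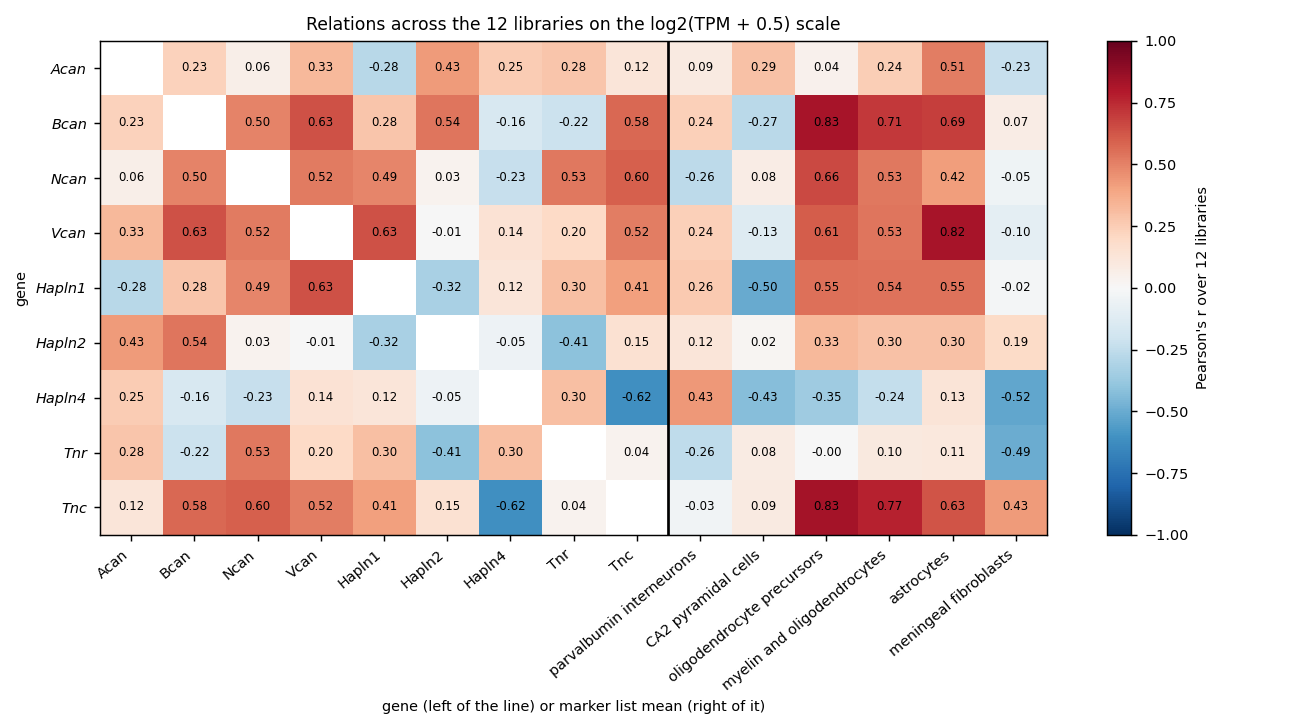
Pearson's r over the 12 libraries between each pair of the 9 genes (left of the vertical line) and between each gene and the mean of 6 marker lists (right of it), coloured from -1 to 1. The darkest cells are those of Bcan and Tnc with oligodendrocyte precursor markers and of Vcan with astrocyte markers, and the lowest is Hapln4 with Tnc at -0.62.

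Against 6 lists of cell type markers, 3 of 54 relations passed by Pearson correlation and none by Spearman correlation. The permutations ignored the 4 groups, so these p-values also take in differences between groups. Bcan was higher where the oligodendrocyte precursor list was higher (r = 0.83, rho 0.79, permutation p = 0.00193 and 0.00335, adjusted p = 0.0347 and 0.103). Its r was 0.94 within groups and 0.84 without the 2 libraries farthest from the median. Tnc had r = 0.83 with the same list (rho 0.72, adjusted permutation p = 0.0347 and 0.103), 0.68 within groups and 0.79 without the 2 farthest libraries. The list held a gap between 8 libraries at or below 0.064 and 4 at or above 0.14, and among those 8 the r was 0.86 for Bcan and 0.45 for Tnc, so the Tnc relation rested largely on the step to the upper 4, 3 of which were standard ethanol. Other glial lists gave values nearly as high, which did not pass. With the myelin and astrocyte lists Bcan had r = 0.71 and 0.69 (rho 0.76 and 0.77, adjusted permutation p = 0.147 and 0.151 for r). With the myelin list Tnc had r = 0.77 (rho 0.73, adjusted permutation p = 0.0616 and 0.103). The relations are therefore not particular to precursor markers, and the precursor list itself holds Bcas1, Enpp6, Olig1, Olig2 and Sox10 beside Pdgfra and Cspg4. Vcan passed with the astrocyte list (adjusted permutation p = 0.0347 for r and 0.103 for rho), but the libraries fell into 4 at or below -0.099 and 8 at or above -0.015, and among the 8 its r was 0.64.

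No relation with the markers of net-bearing cells passed. With parvalbumin and fast-spiking interneuron markers, r ran from -0.26 to 0.43, the highest being Hapln4, and with CA2 markers from -0.50 for Hapln1 to 0.29 for Acan. The Hapln1 value rested on 2 libraries, enriched saline replicate 2 and standard saline replicate 1: it was 0.012 without them, and rho was -0.021. The CA2 list shares Sostdc1 with the choroid plexus list, at 22.1 TPM in its highest library. Acan, the net lectican, had 0.090 with the interneuron and 0.29 with the CA2 list, the latter 0.56 without those 2 libraries. Hapln2 had r = 0.30 with the myelin list (rho 0.45, adjusted permutation p = 0.702 and 0.414), with 0.64 within groups. Both marker lists were detected in every library, with summed levels of 745 to 892 TPM for interneuron and 440 to 561 TPM for CA2 markers. The largest parts of these sums were Gad1 and Cplx1 (means of 233 and 212 TPM, with Pvalb at 74.3) and Pcp4 (321 TPM). The CA2 markers Map3k15 and Avpr1b (0.964 and 0.187 TPM) were below the minimum. The sums therefore do not measure how many net-bearing cells the tissue held.

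**Figure D4:**
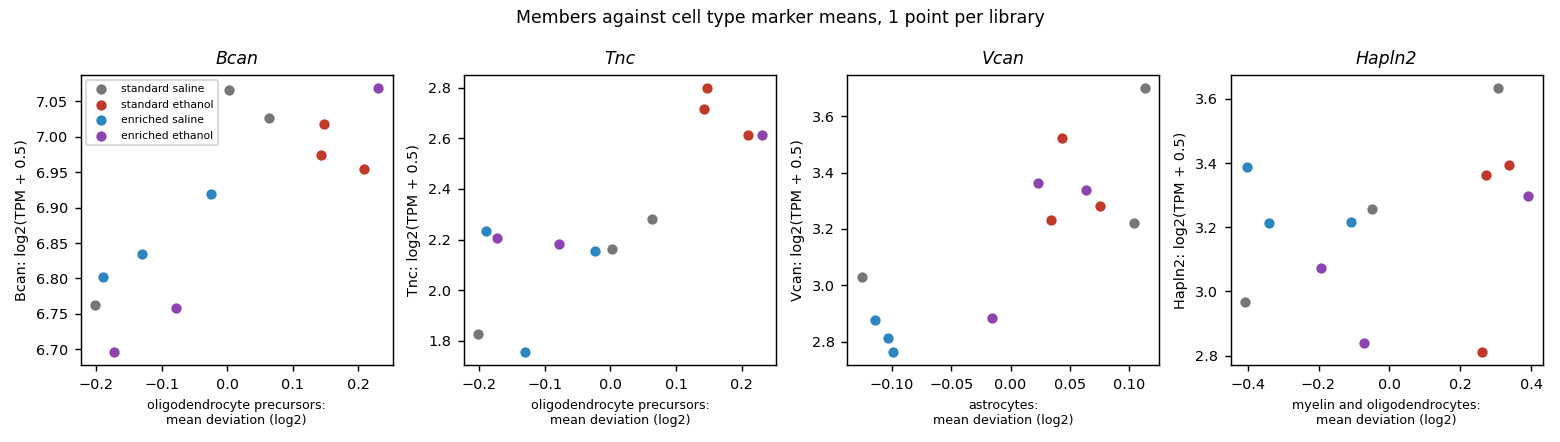
Level of Bcan, Tnc, Vcan and Hapln2 (vertical axes, log2(TPM + 0.5)) against the mean deviation of a marker list in the same library (horizontal axes, log2), with 1 point per library coloured by group. Bcan is higher where the precursor list is higher (r = 0.83), while the 3 standard ethanol points of Tnc and the 3 enriched saline points of Vcan sit at opposite ends of their panels.

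By likeness alone, with no test, the 3 genes with the highest r over the 12 libraries were found for each member among 11128 other genes with a mean of at least 5. For Tnr they were Zswim5 (0.97), Paqr9 (0.94) and Gpr161 (0.92), for Hapln4 Magi2 (0.94), Med19 (0.88) and Dgkz (0.85), and for Bcan Gnai2 (0.93), Lap3 (0.92) and Dip2a (0.90). Ncan was most like Crtac1 (0.93), Dchs1 (0.92) and Neto1 (0.91), Vcan Fgf1 (0.90), Hip1 (0.89) and Atxn2 (0.88). Tnc, compared like Acan with 11129 genes, was most like Cspg4 (0.91), the NG2 proteoglycan of oligodendrocyte precursors and a member of that marker list, Kcnj16 (0.91) and Gja1 (0.91), an astrocyte connexin and a member of the astrocyte list. Hapln1 (Epb41l2, Nol10, Purb), Acan (Plcl1, Btbd3, Dstyk) and Hapln2 (Vwc2, Cyp2u1, Pdxdc1) had highest r values of 0.85, 0.87 and 0.86.

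The enzymes, receptors and proteases around nets were taken from 5 lists, and no gene of any list passed in any of the 8 comparisons. Of the genes that make and turn over hyaluronan, 8 of 10 were tested; Has1 and Has2, both hyaluronan synthases, had means of 0.933 and 0.398 TPM, below the minimum. Their median log2 fold change was 0.075 for averaged ethanol and 0.046 for averaged enrichment, against -0.0017 and -0.00013 over all genes. Cd44, a hyaluronan receptor, had the smallest p of this list for both (log2 fold change 0.39, SE 0.187, and 0.31, SE 0.187; limma adjusted p = 0.652 and 0.709). In standard cages it was at 3.36 ± 1.53 TPM with saline and 5.06 ± 0.574 with ethanol, and in enriched cages at 4.74 ± 0.286 and 5.39 ± 0.845 (SD, n = 3 each). Ugdh, which makes the sugar precursor of hyaluronan and chondroitin, was the most abundant at 16.5 TPM.

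Of the genes of chondroitin sulfate synthesis, 21 of 22 were tested, with 14 above 0 for averaged ethanol and 12 for averaged enrichment. B4galt7, an enzyme of the linker between protein and sugar chain, had the smallest p for ethanol (log2 fold change -0.26, SE 0.061; limma adjusted p = 0.363), with 17.1 ± 0.976 and 16.99 ± 0.768 TPM in the standard and enriched ethanol groups against 20.4 ± 0.746 and 20.5 ± 1.86 in the saline groups. Chst12, a sulfotransferase of chondroitin, had the smallest p for enrichment (0.24, SE 0.079; limma adjusted p = 0.545). B3gat3, another linker enzyme, was the most abundant at 118 TPM. Of the proteases and inhibitors, 16 of 18 were tested. Adamts4, which cleaves lecticans, averaged 19.5 ± 0.281 TPM in standard ethanol and 15.1 ± 3.62 in standard saline, and its averaged ethanol value was 0.36 (SE 0.141; limma adjusted p = 0.563). Adamts1, a related protease, had 0.25 for averaged enrichment (SE 0.105; limma adjusted p = 0.614). The inhibitor Timp2 was the most abundant of that list at 109 TPM, and Mmp3 was listed at 0.

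All 17 genes of net receptors and bound factors were tested, with 12 above 0 for averaged ethanol and 7 for averaged enrichment. Ptprs, the phosphatase that serves as a receptor for chondroitin sulfate, was the most abundant at 333 TPM. Crtac1, an antagonist of the Nogo receptor and the gene most like Ncan, had the smallest p for both, with log2 fold changes of 0.17 and -0.19 (limma adjusted p = 0.639 and 0.614). All 19 other proteoglycan and matrix genes were tested, with 10 and 8 above 0. Sparc, a matrix glycoprotein of glia, averaged 201 ± 19.8 and 197 ± 4.31 TPM in the standard and enriched ethanol groups against 164 ± 7.93 and 156 ± 13.9 in the saline groups (averaged ethanol 0.31, SE 0.056; limma adjusted p = 0.244). Reln, the secreted glycoprotein reelin, had 0.18 for averaged enrichment (SE 0.056; limma adjusted p = 0.517). Sparcl1, or hevin, was the most abundant at 1523 TPM.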

How the data were processed

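RNA was measured in 12 mouse hippocampus libraries. Per the labels' protocols, stranded libraries were made from column-purified total RNA depleted of ribosomal RNA. The tools CASAVA, kallisto and sleuth and the build mm10 are named by the submitters' processing notes, without versions or roles. How transcripts were summed to genes is not given in the sources used here. Although the authors named the deposited values TPM, the columns sum to between 973187 and 1024536, so they were treated as a signal proportional to TPM in each library. The table holds no counts, so depth is unknown and no counting interval is given; 3 libraries per group limit the precision. All 12 columns matched a sample by name, and no pair of libraries held identical values.

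Of 36119 genes, the 14947 with a mean of at least 1 were tested as log2(TPM + 0.5) with limma 3.58.1 in R 4.3.3, with a mean-variance trend, 1 mean per group, 8 residual and 3.82 prior degrees of freedom, 8 comparisons, and Benjamini-Hochberg adjustment over all tested genes. The fit was tested on simulated data. Correlations used 100000 permutations over all 12 libraries, without regard to group. A marker list's value in a library is the mean, over its tested genes, of the deviation from the gene's 12-library mean. Positions and symbols came from GENCODE M21 and promoter windows from RefSeq. The members, gene lists, tests and alternatives were chosen with earlier results of these data known. Named were all members, the most abundant gene of each pathway list and its gene with the smallest p for each averaged effect, any list gene that passed, the 3 genes most like each member, and neighbouring genes. Alternatives were other pseudocounts (0.1 and 1), filters, scalings, variance models, a replicate block, a myelin covariate and left-out libraries.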

Additional observations from a re-analysis of the deposited data

How the results depend on the processing

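No member was called in any of 197 counts recomputed under the alternatives, and of 1757 recomputed log2 fold changes none passed (lowest limma adjusted p 0.253, for the Hapln4 interaction). A change of sign occurred in 69 values of 19 of the 72 member results, with main values no larger than 0.15 in size. The cause was not tested. Many of the 1757 values could not change sign. Other filters, the replicate block and the fit without a mean-variance trend leave a log2 fold change as it is. So does a left-out library of a group outside the comparison. With array weights the values of the other sign were -0.021 (Bcan) and 0.017 (Tnr) for ethanol and enrichment averaged, and -0.0056 (Bcan), -0.016 (Tnr) and -0.074 (Vcan) for ethanol in standard cages. Rescaling each library to the same sum gave 0.0072 (Ncan) and 0.011 (Hapln2) for enrichment in saline mice, 0.010 (Tnr) for enrichment averaged and -0.00033 (Hapln1) for the interaction. The myelin covariate gave -0.13 and -0.11 (Bcan) for ethanol averaged and in standard cages, -0.037 (Vcan) for the latter, 0.15 (Hapln2), 0.0013 (Ncan) and 0.067 (Tnc) for enrichment in saline mice, and 0.098 and 0.050 (Hapln2) for enrichment averaged and in ethanol mice. Without the 3 libraries that stood apart they were -0.059 and -0.082 (Bcan) for ethanol averaged and in standard cages, -0.084 (Vcan) for the latter, 0.026 (Ncan) for enrichment in saline mice, 0.11 (Tnr) for enrichment averaged, and 0.047 (Bcan), -0.14 (Hapln1) and 0.21 (Hapln2) for the interaction.

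With each library left out in turn, the results that changed sign ran as follows. Ethanol averaged over housing gave -0.091 to 0.084 for Acan and -0.047 to 0.046 for Bcan. Ethanol in enriched cages gave -0.12 to 0.062 for Bcan. Ethanol in standard cages gave -0.064 to 0.088 for Bcan, -0.26 to 0.091 for Hapln2, -0.10 to 0.13 for Tnr and -0.12 to 0.22 for Vcan. Interaction gave -0.16 to 0.053 for Bcan, -0.13 to 0.091 for Hapln1 and -0.29 to 0.055 for Hapln2. Enrichment averaged over treatment gave -0.16 to 0.020 for Hapln2, -0.0066 to 0.073 for Hapln4 and -0.064 to 0.052 for Tnr. Enrichment in saline mice gave -0.17 to 0.16 for Hapln2, -0.089 to 0.039 for Ncan and -0.17 to 0.10 for Tnc. Enrichment in ethanol mice gave -0.23 to 0.0057 for Vcan. Ethanol plus enrichment against neither gave -0.27 to 0.070 for Vcan.

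Replicate numbers did not pair the libraries: over 18 pairs of same-numbered libraries the correlation of deviations from the group means ran from -0.15 to 0.058. With the replicate number as a block, 0 members were called in each of the 8 comparisons. Each number occurs once in every group, so this block could change the error but not a log2 fold change. Over all genes the number called ran over the alternatives from 0 to 7 for ethanol in standard and 0 to 15 in enriched cages, 1 to 20 and 0 to 21 for enrichment in saline and ethanol mice, 1 to 16 for both against neither, 0 to 10 and 0 to 11 for averaged ethanol and enrichment, and 0 to 12 for the interaction. The 3 marker relations that passed lost that call in 8 (Bcan), 7 (Tnc) and 8 (Vcan) of 14 alternatives, with adjusted permutation p-values up to 0.111, 0.0821 and 0.0844. The 3 libraries per group and the unknown depth limit what could be seen. In comparisons of 2 groups the median half-width of the 95% confidence intervals was 0.26 on the log2 scale. Values well above that did not pass either, such as 0.62 for Tnc with ethanol in standard cages (limma adjusted p = 0.484). Larger changes of these genes could therefore also have been missed.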
